A study of Mus musculus with 17 samples.

Results

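The gene set covers cholesterol and fatty acid synthesis and its control: 30 mouse genes, picked by symbol as targets or regulators of the SREBP transcription factors, among the 27179 gene rows of the deposited count tables. No threshold on a measured value picked them, but the list was drawn up after results of these libraries had been seen. All 30 had a row and all 30 passed the filter on low counts in every comparison. The libraries came from colon macrophage preparations of C57BL/6 mice aged 8 weeks, with 1 mouse number per library in the labels, and the labels name no sorting step. Wild-type mice were compared with mice lacking MCJ, the protein that Dnajc15 encodes, in 3 conditions. In NN the labels name no treatment (3 wild-type and 2 MCJ-deficient libraries), in NP the mice had DSS, which injures the colon epithelium, for 6 days (3 and 3), and in PP a broad-spectrum antibiotic for 7 days preceded the 6 days of DSS (3 and 3). The labels do not say how the MCJ-deficient line was made. P-values measure the spread between these libraries.

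SREBP factors are made as membrane proteins of the endoplasmic reticulum. When sterols are low, the escort SCAP carries them to the Golgi, where proteases release the part that enters the nucleus and switches on sterol and fatty acid enzymes. When sterols are plentiful, INSIG proteins hold SCAP back, and Insig1 is itself an SREBP target, so the pathway limits itself. In the gut, enterocytes both absorb and make cholesterol, and macrophages take up much of theirs and export the excess.

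SREBP factors bind sterol regulatory elements near the start of their target genes, next to sites for the partners NF-Y (CCAAT) and SP1 (GGGCGG). In RefSeq start-site windows (GRCm38.p6, 250 bases before to 50 after the start), the letters TCACNCCAC were searched on both strands, with CCAAT and GGGCGG, which do not overlap it in the sequences shown. TCACNCCAC was in 408 of 32851 windows (1.24%) and in 1 of the 32 windows of the 24 members that have one, that of Hmgcs1. CCAAT was in 37.4% of all windows and in 21 of the 32 member windows (65.6%). GGGCGG was in 35.7% of all windows and in 24 of the 32 (75%). Each of the latter 2 motifs was in a window of 20 of the 24 members. The 250 bases before the start are shown for Hmgcs1 (chr13:119690101-119690350, plus strand), which holds the TCACNCCAC match. They are also shown for Insig1 (chr5:28071162-28071411, plus strand) and Ebp (chrX:8193513-8193762, minus strand). These 2 were chosen after their values were seen because the genotype and treatment results turn on them. Capitals mark the 3 motifs on either strand.
Hmgcs1: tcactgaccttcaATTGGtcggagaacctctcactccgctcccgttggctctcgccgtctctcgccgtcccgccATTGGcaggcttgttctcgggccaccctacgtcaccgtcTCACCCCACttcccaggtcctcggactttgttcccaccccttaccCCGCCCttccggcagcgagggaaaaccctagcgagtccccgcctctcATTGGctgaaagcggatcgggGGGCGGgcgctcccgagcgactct
Insig1: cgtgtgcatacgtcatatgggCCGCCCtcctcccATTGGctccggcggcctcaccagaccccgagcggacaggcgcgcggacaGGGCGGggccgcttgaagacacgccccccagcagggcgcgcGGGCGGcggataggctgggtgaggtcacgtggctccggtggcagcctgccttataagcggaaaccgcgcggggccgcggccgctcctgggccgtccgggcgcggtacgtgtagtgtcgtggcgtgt
Ebp: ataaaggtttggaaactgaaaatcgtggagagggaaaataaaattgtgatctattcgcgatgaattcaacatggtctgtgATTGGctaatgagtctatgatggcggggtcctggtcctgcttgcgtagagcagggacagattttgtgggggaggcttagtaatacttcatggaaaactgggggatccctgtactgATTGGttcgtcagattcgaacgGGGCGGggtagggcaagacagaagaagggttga
A match is a run of letters and not a measured binding site.

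Depth was 29194744 to 37083344 counts per library. Dnajc15 had 359 to 1534 counts in the wild-type libraries and 21 to 121 in the MCJ-deficient ones, in the direction the labels give. The macrophage label did not match the RNA in NN, and colonocyte RNA was plentiful in NP and PP as well. Levels here are CPM, counts scaled to library size with TMM factors. They are not divided by gene length, so they are compared between libraries and not between genes. The 12 macrophage markers summed to 29.1 to 46.6 CPM in wild-type NN and, without MCJ, to 41.7 to 48.1. In wild-type NN, Adgre1, a defining gene of tissue macrophages, had 0 to 2 counts per library. Other markers of the list were higher there, such as Cd14 and Mertk, with 1273 and 632 counts over the group. Colonocyte markers, such as Krt8 and Lgals4, summed to 20873 to 29101 CPM in the 5 NN libraries. In NP the macrophage sum was 150 to 240.2 CPM in wild type and 527 to 1549 in MCJ deficiency, and the colonocyte sum was 15738 to 21868 and 17058 to 21170 CPM. In PP the macrophage sum was 631 to 4991 CPM in wild type and 2870 to 5430 in MCJ deficiency, and the colonocyte sum was 10250 to 15631 and 10028 to 14408 CPM. In such bulk libraries, fewer cells of a type and less RNA per cell cannot be told apart. Some libraries stood apart. Wild-type NN library 2 had 10075 genes with at least 10 counts, against 12383 to 14790 in the other 16 libraries. Wild-type NP library 9 was the lowest of its group for 15 of the 18 sterol enzymes, and wild-type PP library 11, with the lowest macrophage sum of PP, was the highest of its group for 14 of 18. Wild-type NP library 8 and MCJ-deficient NP library 21 were each the highest of their group for 12 of 18.

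**Figure D1:**
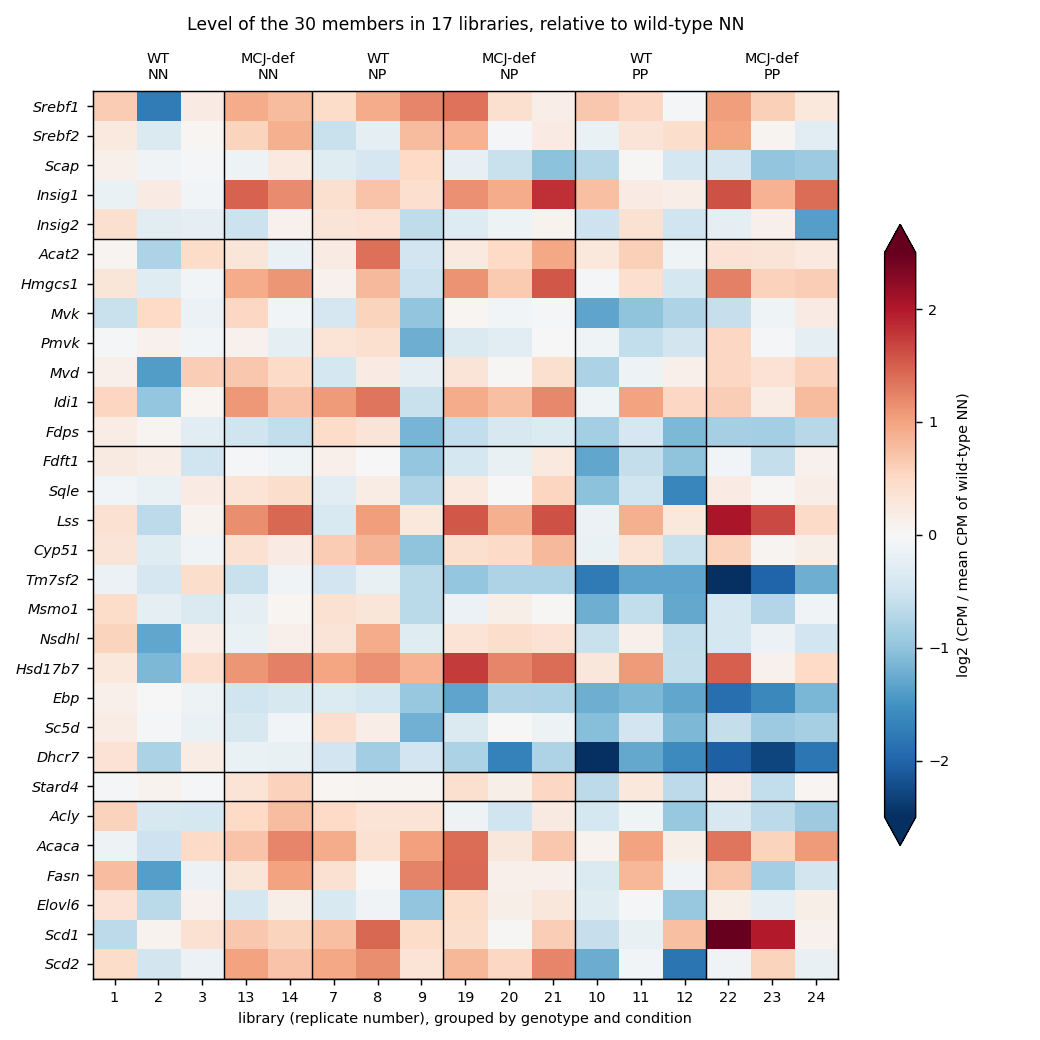
Level of each member (rows, by role: regulators, early mevalonate pathway, squalene to cholesterol, sterol transport, fatty acids) in each of the 17 libraries (columns), as log2 of its CPM over the mean CPM of wild-type NN. Dhcr7, Ebp and Tm7sf2 are blue throughout both PP groups. Insig1 is above the wild-type NN mean in every MCJ-deficient library and, by less, in every wild-type NP and PP library.

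The regulators were compared first. Srebf1 and Srebf2 encode the SREBP factors themselves, the first acting mainly on fatty acid genes and the second mainly on sterol genes. In wild type, Srebf1 was at 14.1, 2.72 and 10.5 CPM in NN, at 12.6, 17.4 and 21.2 in NP and at 14.6, 12.97 and 8.77 in PP. Without MCJ, Srebf1 was at 17.4 and 15.7 CPM in NN, at 23.4, 12.1 and 10.2 in NP and at 18.7, 13.8 and 11.0 in PP. The genotypes overlapped in NP and PP but not in NN, where the low value of wild-type library 2 lay apart from the other 2. In wild type, Srebf2 was at 39.6, 26.2 and 34.8 CPM in NN, at 22.9, 28.7 and 58.3 in NP and at 30.03, 41.9 and 45.7 in PP. Without MCJ, Srebf2 was at 49.4 and 61.9 CPM in NN, at 61.5, 32.5 and 38.9 in NP and at 66.5, 35.0 and 27.8 in PP. Both NN libraries without MCJ lay above all 3 wild-type ones, with a log2 fold change of 0.68 ± 0.26 (SE) and an adjusted p of 0.572. Here and below, p-values come from the quasi-likelihood test of edgeR, adjusted over all genes by the Benjamini-Hochberg method.

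Scap encodes the escort of SREBP. In wild type, Scap was at 17.1, 14.9 and 15.2 CPM in NN, at 12.8, 11.8 and 22.2 in NP and at 9.65, 16.0 and 11.7 in PP. Without MCJ, Scap was at 14.4 and 18.7 CPM in NN, at 13.7, 10.7 and 7.68 in NP and at 11.7, 7.97 and 8.43 in PP. Its MCJ-deficient libraries were lower in NP and in PP than in NN without overlap, but no test passed (PP against NN, log2 fold change -0.82 ± 0.38, adjusted p = 0.205). Insig2, the second retention protein, showed no such order. In wild type, Insig2 was at 29.8, 18.5 and 19.1 CPM in NN, at 28.2, 28.9 and 14.5 in NP and at 15.7, 29.3 and 16.0 in PP. Without MCJ, Insig2 was at 15.4 and 24.1 CPM in NN, at 17.9, 20.6 and 23.9 in NP and at 19.1, 24.4 and 8.62 in PP. The genotypes overlapped in all 3 conditions.

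Insig1 (NCBI gene 231070, chr5:28071412-28078662 in GRCm38.p6) encodes the retention protein that is itself an SREBP target, and its promoter above holds CCAAT and GGGCGG. In wild type, Insig1 was at 44.8, 57.6 and 47.7 CPM in NN, at 66.1, 81.8 and 67.3 in NP and at 84.5, 57.3 and 56.2 in PP. Without MCJ, Insig1 was at 139.9 and 113 CPM in NN, at 111, 94.8 and 176 in NP and at 150.3, 91.8 and 131 in PP. Every MCJ-deficient library was above every wild-type library, within each condition and across all 3. The fitted log2 fold changes were 1.29 ± 0.22 in NN, 0.83 ± 0.26 in NP and 0.95 ± 0.32 in PP, with adjusted p-values of 0.547, 0.27 and 0.938. None passed the threshold of 0.05. Averaged over the 3 conditions in a fit of all 17 libraries, the log2 fold change was 1.03 ± 0.16 with an adjusted p of 0.0532, just outside the threshold. Insig1 was the only member whose genotypes did not overlap, with MCJ deficiency higher, in each of the 3 conditions, as were 44 of 12813 genes tested in all 3 (0.343%).

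Its call depended on the processing. Over 21 alternatives the averaged log2 fold change of Insig1 ran from 0.93 to 1.10, and 10 of them passed the threshold: DESeq2 (adjusted p = 2.15e-05), no filter on low counts (0.0131) and 8 of the 17 fits that leave out 1 library. Set against the colonocyte marker sum of the same library, Insig1 was at 1.76 ± 0.19 CPM per 1000 CPM of those markers in NN of wild type (SD, n = 3) and 5.52 ± 1.67 without MCJ (n = 2). In NP the ratio was 3.77 ± 0.66 and 6.69 ± 2.23, and in PP 5.73 ± 2.32 and 10.9 ± 3.14 (n = 3 each).

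**Figure D2:**
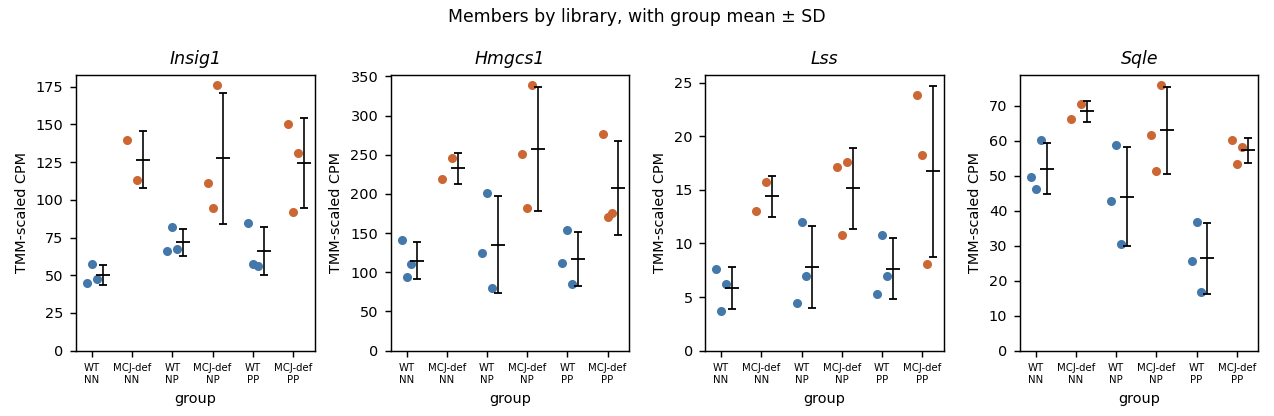
CPM of Insig1, Hmgcs1, Lss and Sqle in each library (points; blue, wild type; orange, MCJ-deficient), with group mean and SD beside the points. Insig1 is at 91.8 CPM or more in every MCJ-deficient library and at 84.5 or less in every wild-type one, while the genotypes of Lss overlap in NP and PP.

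No member passed the test of MCJ deficiency in any condition. In NN 0 of 30 members were called by edgeR, where 0% of all 13559 genes tested were, and 7 members had an unadjusted p under 0.05. DESeq2 called 2 in NN, Insig1 and Hmgcs1, and 2.3% of all genes. In NP 0 members were called by edgeR and 0 by DESeq2, against 1% and 2.5% of 14452 genes, and 4 had an unadjusted p under 0.05. In PP 0 were called by either tool, against 0% of 14556 genes by edgeR and 0.605% by DESeq2, and 7 had an unadjusted p under 0.05. Averaged over conditions, edgeR called 0 members (0.0059% of 16958 genes), 9 had an unadjusted p under 0.05, and DESeq2 called 4: Insig1, Hmgcs1, Lss and Sqle, all higher without MCJ. DESeq2 called 2.81% of all genes there, 1.39% higher. With 1 library left out, edgeR called 3 members without MCJ-deficient PP library 24, where 91 of 16862 genes were called. It called 1 without any one of NP library 20 and PP library 23 of MCJ deficiency or NN libraries 1, 2 and 3 and PP libraries 10 and 11 of wild type. In those fits 3 to 157 genes were called. Of all genes, 8.29% had an unadjusted p under 0.05 in NN, 9.24% in NP, 5.21% in PP and 13.7% averaged. TMM factors differed by genotype in NN, at 0.699 to 0.837 in wild type and 1.16 to 1.27 in MCJ deficiency, and macrophage markers differed in NP, where 7 of 12 were called higher without MCJ and their sum was 527 to 1549 CPM against 150 to 240.2. The mitochondrial share of counts in NN was 38.9 to 50.4% in wild type and 23.1 to 28.4% in MCJ deficiency. In PP it was 38.7 to 48.4% and 25.4 to 35.2%, and in NP the genotypes overlapped. Colonocyte markers gave 0 of 12 calls for MCJ deficiency in each condition. The part of these differences in the members' values was not tested.

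The median log2 fold change of the 30 members for MCJ deficiency was 0.30 in NN, 0.04 in NP and 0.34 in PP, where the medians of all genes tested were 0.08, 0.03 and 0.01. The NN median was 0.18 without wild-type library 2. The NP median ran from -0.17 without wild-type library 9 to 0.16 without wild-type library 8, and was 0.15 without MCJ-deficient library 20 and 0.01 without MCJ-deficient library 19 or 21. The PP median was 0.01 without MCJ-deficient library 22 and 0.19 without wild-type library 12. Of the 30, 14 had a positive fold change in all 3 conditions, against 20.1% of 12813 genes, and 5 a negative one, against 16.4%. With RLE scaling the counts were 13 and 7: Scd2 left the first, and Fdps and Scap joined the second. Differences of the MCJ effect between conditions reached no call: 0 of 30 members by edgeR and by DESeq2 for NP minus NN and for PP minus NP. Of all genes, edgeR called 0% in each, and DESeq2 called 0.831% and 0.478%.

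The early mevalonate enzymes turn acetyl-CoA into farnesyl diphosphate. Of these 7 genes, 5 had positive MCJ fold changes in NN, 5 in NP and 7 in PP, and 0 were called in each. Hmgcs1, which encodes HMG-CoA synthase and whose promoter holds the TCACNCCAC match shown above, had the smallest p of them. In NN, Hmgcs1 was at 115 ± 23.9 CPM with MCJ and 233 ± 19.5 without it (SD, n = 3 and 2), without overlap. In NP, Hmgcs1 was at 135 ± 61.9 and 257 ± 78.8 CPM, and in PP at 117 ± 34.5 and 207 ± 60.1 (n = 3 each). The genotypes overlapped in NP, where wild-type library 8 reached 202 CPM, and not in PP. The averaged log2 fold change of Hmgcs1 was 0.93 ± 0.20 (adjusted p = 0.0792), and 3 of 21 alternatives called it. Fdps, farnesyl diphosphate synthase, went the other way in NN, at 137, 127 and 99.1 CPM in wild type against 85.1 and 78.8 (log2 fold change -0.61 ± 0.22, adjusted p = 0.572).

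From squalene to cholesterol, 4 of 11 genes had positive MCJ fold changes in NN, 5 in NP and 7 in PP. Signs differed between the enzymes of this branch. Sqle, squalene epoxidase, and Lss, lanosterol synthase, had positive values in all 3 conditions, as did Cyp51, which removes a methyl group from lanosterol, and Hsd17b7, a ketosteroid reductase. Tm7sf2, a sterol reductase, Ebp, the sterol isomerase, Dhcr7, the reductase of the last step, and Nsdhl, a sterol dehydrogenase, had negative ones in all 3. In NN, Lss was at 5.82 ± 1.97 CPM with MCJ and 14.4 ± 1.94 without it (SD, n = 3 and 2), and the genotypes did not overlap, and its averaged log2 fold change was 1.13 ± 0.28 (adjusted p = 0.107). Sqle had an averaged log2 fold change of 0.68 ± 0.17 (adjusted p = 0.117) and the smallest p of any member in PP, at 1.15 ± 0.33 (adjusted p = 0.938). Hmgcs1, Lss and these values of Sqle were singled out after their values were seen.

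**Figure D3:**
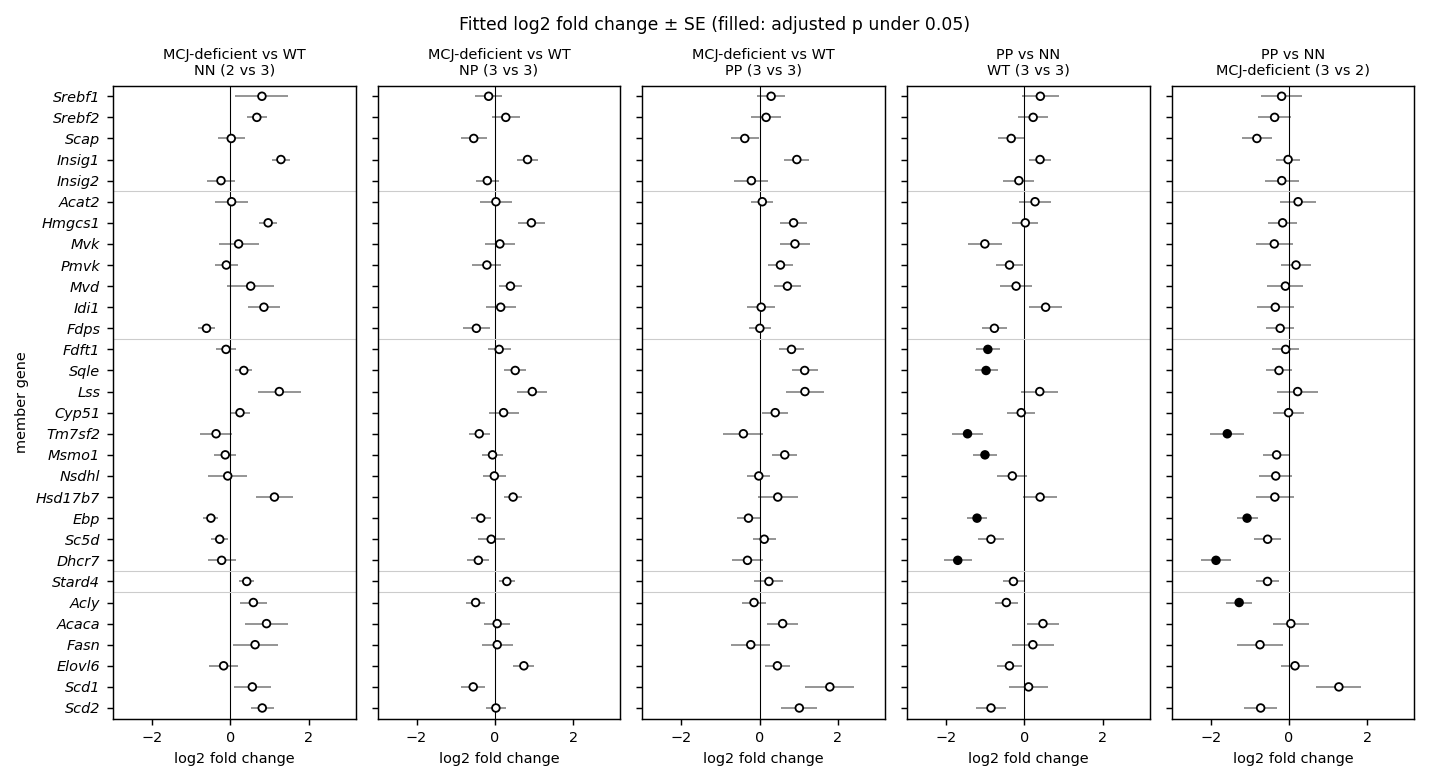
Fitted log2 fold change ± SE of each member for MCJ deficiency in each condition (3 left panels, 1 fit per condition) and for PP against NN in each genotype (2 right panels, 1 fit of 17 libraries), with filled points at an adjusted p under 0.05. Filled points appear only in the panels of PP against NN, 6 in wild type and 4 in MCJ deficiency, all below 0.

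Groups that did not overlap were common in the small NN comparison. MCJ-deficient libraries were all higher for 12 members (20.4% of all genes) and all lower for 2, Fdps and Ebp (10.9%). In NP 4 members were higher without overlap, Insig1, Hsd17b7, Stard4 and Elovl6 (9.8% of genes), and 2 lower, Tm7sf2 and Acly (7.35%). In PP 5 were higher, Insig1, Hmgcs1, Mvk, Mvd and Sqle (5.53%), and 0 lower (6.21%).

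DSS alone moved no member past the test. In wild type 0 of 30 were called by edgeR and by DESeq2 (2.44% and 6.44% of 16958 genes), with 3 at an unadjusted p under 0.05, as were 15.9% of genes. Without MCJ 0 were called by edgeR and by DESeq2 (2.08% and 4.64% of genes), with 2 at an unadjusted p under 0.05, as were 8.27% of genes. The members' median log2 fold change was 0.11 in wild type and -0.02 in MCJ deficiency, against 0.14 and 0.02 for all genes, and the wild-type median ran from -0.01 without NP library 8 to 0.38 without NN library 1, with 0.36 without NP library 9 and 0.20 without NN library 3. The MCJ-deficient median ran from -0.14 without NP library 21 to 0.03 without NP library 20, with -0.05 and -0.07 without NN libraries 13 and 14. Fold changes ran from -0.60 (Dhcr7) to 1.01 (Hsd17b7) in wild type and from -0.85 (Dhcr7) to 0.52 (Acat2) in MCJ deficiency. NP lay above NN without overlap for 3 members in wild type (12% of genes) and 2 in MCJ deficiency (19%), and below it for 1 (6.22%) and 6 (17.1%).

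Libraries taken after antibiotic and DSS were set against those of NN, and some enzymes of the late sterol pathway were lower in both genotypes. In wild type 6 of 30 members were called, all lower, where 20.1% of genes were called and 7.31% were called lower: Fdft1, Sqle, Tm7sf2, Msmo1, Ebp and Dhcr7. Without MCJ 4 were called, all lower, where 10.3% of genes were called and 3.77% were called lower: Tm7sf2, Ebp, Dhcr7 and Acly. Tm7sf2, Ebp and Dhcr7 thus passed in both. Of the 11 genes from squalene to cholesterol, 6 fell in wild type and 3 in MCJ deficiency, and of the 7 early mevalonate genes 0 passed in either genotype. The median log2 fold change of the 30 members was -0.29 in each genotype, against 0.27 and 0.06 for all genes. In wild type it was -0.14 without NN library 1, -0.15 without PP library 10 and -0.53 without PP library 11, and in MCJ deficiency RLE scaling gave -0.18. Both MCJ-deficient NN libraries held Xist, the RNA of the inactive X of female cells, at 7176 and 7950 counts, and the 3 MCJ-deficient PP libraries held 0 to 9. The labels give no sex, so treatment and a difference in sex cannot be told apart in that comparison.

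Dhcr7 (NCBI gene 13360, chr7:143823167-143848410) encodes the reductase that completes cholesterol. In wild type, Dhcr7 was at 58.6, 26.5 and 51.8 CPM in NN, at 32.6, 25.1 and 32.8 in NP and at 8.12, 18.8 and 15.2 in PP. Without MCJ, Dhcr7 was at 40.8 and 40.3 CPM in NN, at 26.4, 14.2 and 26.7 in NP and at 11.02, 9.33 and 13.04 in PP. PP lay below NP, and below NN, without overlap in both genotypes. The log2 fold change of PP against NN was -1.70 ± 0.36 in wild type (adjusted p = 0.00286) and -1.87 ± 0.39 in MCJ deficiency (adjusted p = 0.00436). It was called in all 11 alternatives run in wild type and all 10 in MCJ deficiency.

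Ebp (NCBI gene 13595, chrX:8185329-8193512), whose promoter is shown above, encodes the isomerase that moves a double bond in the sterol ring. In wild type, Ebp was at 170.1, 154 and 142 CPM in NN, at 122, 114 and 80.3 in NP and at 67.2, 71.4 and 63.1 in PP. Without MCJ, Ebp was at 110.2 and 118 CPM in NN, at 61.9, 92.7 and 91.7 in NP and at 41.9, 50.8 and 70.1 in PP. In wild type the 3 conditions did not overlap, and in MCJ deficiency NP and PP did. The log2 fold change of PP against NN was -1.21 ± 0.25 in wild type (adjusted p = 0.00232), called in 11 of 11 alternatives. In MCJ deficiency it was -1.07 ± 0.27 (adjusted p = 0.0156), called in 6 of 10, and not called without NN library 13, NN library 14 or PP library 23.

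Tm7sf2 (NCBI gene 73166, chr19:6062821-6067850) encodes a reductase of the sterol ring. In wild type, Tm7sf2 was at 16.8, 14.1 and 25.3 CPM in NN, at 13.4, 16.4 and 11.8 in NP and at 5.47, 7.50 and 7.56 in PP. Without MCJ, Tm7sf2 was at 12.7 and 17.6 CPM in NN, at 9.55, 10.9 and 11.0 in NP and at 2.49, 4.69 and 8.04 in PP. Every PP library was below every NP and NN library of its genotype. The log2 fold change of PP against NN was -1.45 ± 0.40 in wild type (adjusted p = 0.0165; called in 8 of 11 alternatives) and -1.58 ± 0.44 in MCJ deficiency (adjusted p = 0.027; 5 of 10). In wild type it was not called without NN library 3 or PP library 10, and in MCJ deficiency not without any 1 of NN libraries 13 and 14 or PP libraries 22 and 23.

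**Figure D4:**
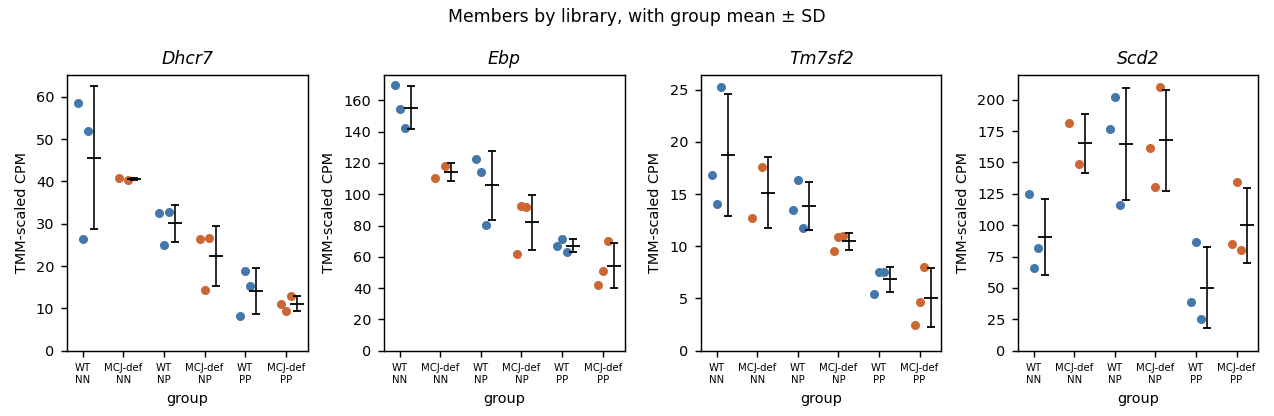
CPM of Dhcr7, Ebp, Tm7sf2 and Scd2 in each library (points; blue, wild type; orange, MCJ-deficient), with group mean and SD beside the points. Dhcr7 and Tm7sf2 have every PP library below every NP and NN library of the same genotype, and Scd2 in wild type is lower in PP than in NP.

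Fdft1, Sqle and Msmo1 passed in wild type only. Whether their change differed between the genotypes was not tested. Fdft1, squalene synthase, commits farnesyl diphosphate to sterols. In wild type, Fdft1 was at 141, 134 and 84.7 CPM in NN, at 130.1, 119 and 61.5 in NP and at 48.8, 79.7 and 59.7 in PP. Without MCJ, Fdft1 was at 117 and 112 CPM in NN, at 88.3, 105 and 141 in NP and at 115, 79.3 and 129.7 in PP, where NN and PP overlapped. The wild-type log2 fold change was -0.93 ± 0.31 (adjusted p = 0.0429), against -0.09 ± 0.35 in MCJ deficiency. It was not called without NN library 1 or 2 or PP library 10 or 12.

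Sqle encodes the epoxidase that makes the first oxygenated intermediate. In wild type, Sqle was at 49.5, 46.2 and 60.2 CPM in NN, at 42.7, 58.8 and 30.5 in NP and at 25.5, 36.8 and 16.8 in PP. Without MCJ, Sqle was at 66.3 and 70.5 CPM in NN, at 61.6, 51.3 and 75.9 in NP and at 60.1, 53.2 and 58.2 in PP. Wild-type PP was thus below every other group except for wild-type NP library 9. The wild-type log2 fold change of PP against NN was -0.98 ± 0.29 (adjusted p = 0.0255), against -0.26 ± 0.32 in MCJ deficiency (adjusted p = 0.715), and it was not called without NN library 3 or PP library 10 or 12. Msmo1 encodes the oxidase that removes methyl groups from the sterol ring. In wild type, Msmo1 was at 224, 141 and 127 CPM in NN, at 215, 203 and 102 in NP and at 70.3, 107 and 67.5 in PP. Without MCJ, Msmo1 was at 141 and 169.8 CPM in NN, at 149, 181 and 168 in NP and at 121, 98.7 and 154 in PP, overlapping with NN. The wild-type log2 fold change was -1.01 ± 0.31 (adjusted p = 0.0268), against -0.32 ± 0.34 in MCJ deficiency, and it was not called without NN library 1 or PP library 10 or 12.

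The count of 6 in wild type was 8 without PP library 11, the one with the low macrophage sum, 2 without PP library 10 and 3 without PP library 12. It was 4 without NN library 1 or 3 and 5 without NN library 2. Of all genes, 3362, 2118 and 2479 were called without PP libraries 11, 10 and 12. Without NN libraries 1, 3 and 2, 3035, 3640 and 2783 genes were called, and these fits tested 16763 to 16925 genes. The count of 4 in MCJ deficiency was 1 without PP library 23, where 1128 of 16782 genes were called. It was 3 without PP library 22, where 1360 of 16797 genes were called. It was 4 without PP library 24, with 1 higher and 3 lower, where 1971 of 16862 genes were called. Leaving out NN library 13 or 14 left 1 library in that group, and the members' median log2 fold change was then -0.27 or -0.20. Libraries of PP were lower without overlap for 10 members in wild type (12.8% of genes) and 10 in MCJ deficiency (21.8% of genes), and higher without overlap for 0 in each (20.7 and 21.1%).

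Colonocyte markers moved with these genes. Of the 12 markers, 7 were called lower in wild-type PP against NN and 5 in MCJ-deficient PP. None was called higher, and none was at 0 counts in any library. All 12 had negative fold changes in wild type, and 9 were negative and 3 positive in MCJ deficiency. Other epithelial lists differed: of 8 crypt progenitor markers, 4 were called higher in wild type and 0 in MCJ deficiency (median log2 fold changes 0.92 and -0.61). Of 7 goblet markers, 0 were called in either genotype (medians -0.36 and 0.16). The summed level of the 12 colonocyte markers was 27910 to 29101 CPM in wild-type NN and 10250 to 15631 in wild-type PP. The log2 ratio of means was -1.22 in wild type and -1.02 in MCJ deficiency. Per 1000 CPM of colonocyte markers, a ratio chosen after the data were seen, Ebp stood at 5.49 ± 0.53 in wild-type NN and 5.68 ± 1.01 in wild-type PP (SD, n = 3 each), and at 4.90 ± 0.53 (n = 2) and 4.66 ± 0.53 (n = 3) in MCJ deficiency. On that scale the NN and PP libraries of Ebp overlapped in both genotypes. Fdft1 was at 4.23 ± 1.06 and 5.15 ± 0.42, Sqle at 1.84 ± 0.29 and 2.14 ± 0.50, and Msmo1 at 5.81 ± 1.93 and 6.68 ± 0.30 in wild-type NN and PP, so their means were not lower in PP. Dhcr7 stayed lower in its mean, at 1.62 ± 0.63 and 1.14 ± 0.32 in wild type, with overlap, and at 1.75 ± 0.29 and 0.968 ± 0.088 in MCJ deficiency, without overlap. Tm7sf2 was lower in its mean as well, at 0.664 ± 0.218 and 0.574 ± 0.119 in wild type, with overlap, and at 0.641 ± 0.0449 and 0.423 ± 0.163 in MCJ deficiency, without overlap. The ratio is to colonocyte markers only and not to the epithelium as a whole. Car1, Lgals4, Krt8 and Krt19 had the largest counts of the 12, at 627538, 506135, 287643 and 279448 over wild-type NN. Changes of these genes themselves thus weigh on the ratio. The part of the colonocyte share in these results was not tested.

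**Figure D5:**
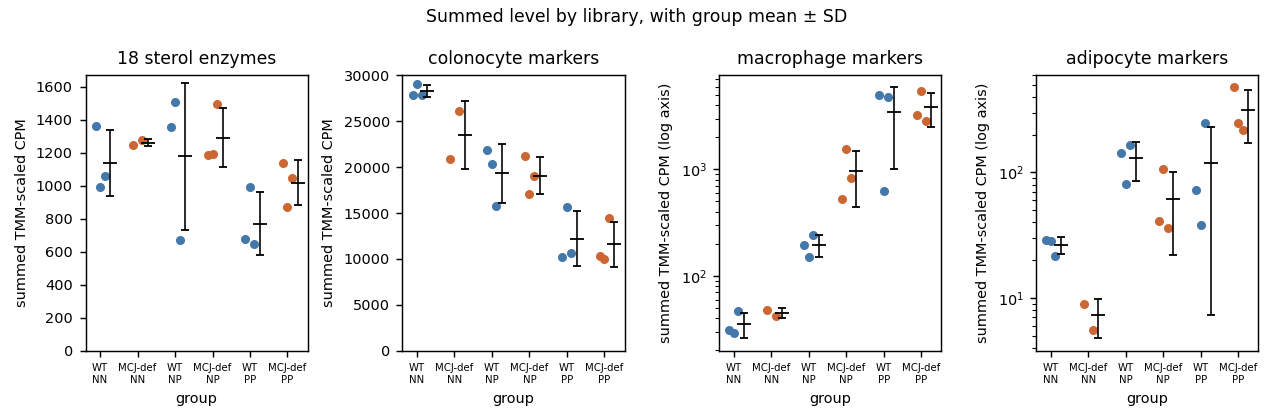
Summed CPM of the 18 sterol enzymes and of the colonocyte, macrophage and adipocyte markers in each library (points; blue, wild type; orange, MCJ-deficient), with group mean and SD; the macrophage and adipocyte axes are logarithmic. The colonocyte sum is lower in both PP groups than in both NN groups, and the macrophage sum is higher.

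Antibiotic before DSS was also set against DSS alone. In wild type 1 of 30 members was called, lower, where 4.41% of genes were called and 0.926% were called lower, and 10 had an unadjusted p under 0.05, as did 16.6% of genes. In MCJ deficiency 0 were called by edgeR (1.73% of genes), and 4 had an unadjusted p under 0.05, as did 14.3% of genes. DESeq2 called 1, Scd1, and 5.44% of all genes. In wild type 28 of the 30 had a negative fold change, as did 47% of all genes, and the median of the members was -0.47 against 0.06 for all genes. It was -0.30 without PP library 12, -0.71 without NP library 9 and -0.70 without PP library 11. All 12 colonocyte markers also had negative fold changes, with a median of -0.72 and 1 called, and 10 of 12 macrophage markers were called higher. In MCJ deficiency the members' median was -0.30 against 0.01 for all genes, and -0.46 without PP library 22, with 9 of 12 colonocyte markers negative. The part of these markers in the members' values was not tested. PP lay below NP without overlap for 5 members in each genotype (10.8 and 10.5% of genes), Tm7sf2 and Dhcr7 in both, and above it for 0 (11.6 and 12.8%). These comparisons share the PP libraries with those against NN.

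The member called was Scd2 (NCBI gene 20250, chr19:44293676-44306864), a desaturase that makes monounsaturated fatty acids. In wild type, Scd2 was at 125, 65.8 and 82.1 CPM in NN, at 176, 202 and 116 in NP and at 38.5, 86.8 and 25.6 in PP. Without MCJ, Scd2 was at 182 and 149 CPM in NN, at 162, 130.2 and 210.5 in NP and at 85.3, 134 and 80.2 in PP. Wild-type NP was above wild-type PP without overlap, and in MCJ deficiency PP library 23 reached into NP. The wild-type log2 fold change of PP against NP was -1.71 ± 0.39 (adjusted p = 0.0197), called in 6 of 11 alternatives and not without NP library 7 or 8 or PP library 10 or 12. In MCJ deficiency it was -0.75 ± 0.39 (adjusted p = 0.399). Per 1000 CPM of colonocyte markers, wild-type Scd2 stood at 8.45 ± 1.33 in NP and 3.90 ± 1.58 in PP (SD, n = 3 each), without overlap. Leaving out NP library 9 raised the wild-type count to 4 (Scd2, Fdps, Msmo1 and Sc5d), where 321 of 16877 genes were called. Leaving out PP library 11 raised it to 4 (Scd2, Sqle, Dhcr7 and Msmo1), where 1313 of 16869 genes were called.

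Among the other fatty acid members, Acly and Scd1 had the clearest differences. Acly, ATP citrate lyase, makes cytosolic acetyl-CoA for both pathways. In wild type, Acly was at 90.3, 46.0 and 44.7 CPM in NN, at 85.1, 76.9 and 76.0 in NP and at 44.2, 55.9 and 31.4 in PP. Without MCJ, Acly was at 85.4 and 103 CPM in NN, at 55.3, 42.8 and 70.8 in NP and at 46.0, 38.2 and 32.2 in PP. PP was below NN without overlap in MCJ deficiency only (log2 fold change -1.28 ± 0.33, adjusted p = 0.0186; 6 of 10 alternatives), not called without NN library 13 or 14 or PP library 23 or 24, against -0.46 ± 0.30 in wild type (adjusted p = 0.282). Per 1000 CPM of colonocyte markers, Acly was at 4.01 ± 0.115 in MCJ-deficient NN and 3.50 ± 1.14 in MCJ-deficient PP.

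Scd1 encodes the desaturase that is abundant in fat cells. MCJ-deficient PP libraries held 60.2, 39.5 and 10.7 CPM of Scd1, and wild-type PP libraries 6.66, 8.77 and 16.8. Libraries 22 and 23 were above all wild-type ones and library 24 was within their range. The MCJ fold change of Scd1 in PP was 1.79 ± 0.63 (log2, adjusted p = 0.938) and that of PP against NP without MCJ was 1.504 ± 0.504 (adjusted p = 0.147), which DESeq2 called (adjusted p = 0.0484). The change of the MCJ effect of Scd1 from NP to PP was 2.33 ± 0.71 (log2, adjusted p = 0.566). Of the adipocyte markers, Adipoq, which encodes adiponectin, had 790, 513 and 192 counts in MCJ-deficient PP. It had 25 to 177 in wild-type PP and 0 in all 5 NN libraries. The 8 adipocyte markers summed to 478, 247 and 218 CPM in MCJ-deficient PP libraries 22, 23 and 24. In wild-type PP libraries 10, 11 and 12 they summed to 72.5, 37.9 and 246 CPM. Within MCJ-deficient PP, Scd1, Adipoq and this sum were each highest in library 22 and lowest in library 24. MCJ-deficient library 24 and wild-type library 12 had sums near that of library 23, at lower Scd1 levels. The sum does not weigh its genes alike: over wild-type PP, Fabp4 held 9066 counts and Adipoq 233. Of the 8, Lep was at 0 counts in every wild-type library, and 1 marker of the 7 tested was called higher in MCJ-deficient PP against NP. Their part in the Scd1 values was not tested.

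Acaca and Fasn, which build the fatty acid chain, Elovl6, which lengthens it, and Stard4, which carries sterols through the cytosol, were not called in any comparison. Stard4 was positive for MCJ deficiency in all 3 conditions (log2 fold changes 0.42, 0.30 and 0.24) and higher without overlap in NN and NP.

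The neighbouring genes of the pathway were read from lists. Of 10 proteases and membrane factors that process SREBP or hold it back, 0 passed in any comparison. Of 9 other sterol and isoprenoid synthesis genes with a row, 2 rose in wild-type PP against NN, where 12.8% of all genes rose. Lbr encodes a lamin receptor that also carries the sterol reductase activity of Tm7sf2. In wild type, Lbr was at 27.7, 23.1 and 24.1 CPM in NN and at 67.2, 64.5 and 50.9 in PP (log2 fold change 1.29 ± 0.23, adjusted p = 0.000837), while Tm7sf2 fell in the same libraries. Nus1, a subunit of the enzyme that makes dolichol, rose by a log2 fold change of 0.67 ± 0.21 in wild type (adjusted p = 0.0324) and 0.92 ± 0.24 in MCJ deficiency (adjusted p = 0.0201), the only gene of that list called there.

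Of 22 other fatty acid and glycerolipid genes, 2 rose and 6 fell in wild-type PP against NN, and 0 rose and 2 fell in MCJ deficiency. Of all genes, 12.8% rose and 7.31% fell in wild type, and 6.52% rose and 3.77% fell in MCJ deficiency. The colonocyte marker sum was lower in the same comparisons, by log2 ratios of -1.22 and -1.02, and its part in these falls was not tested. Acss2, which makes acetyl-CoA from acetate, and Fads2, a desaturase of polyunsaturated fatty acids, fell in both. Acss2 fell by 1.56 ± 0.40 (log2, adjusted p = 0.01) in wild type and by 1.67 ± 0.43 (adjusted p = 0.0178) in MCJ deficiency. Fads2 had log2 fold changes of -1.29 ± 0.45 (adjusted p = 0.0499) and -1.59 ± 0.48 (adjusted p = 0.0439), and in wild type PP was below NP by the same measure at -1.82 ± 0.45 (adjusted p = 0.0281), the only call of this list there. The smallest p in wild type was that of Tecr, a reductase of fatty acid elongation, at -1.25 ± 0.23 (adjusted p = 0.00108).

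Of 18 genes of sterol export and storage, 3 rose and 0 fell in PP against NN in each genotype, where 12.8% of all genes rose in wild type and 6.52% in MCJ deficiency. In each genotype 15 of the 18 did not pass. Abca1, the transporter that loads cholesterol onto lipoproteins, was at 0.205, 0.146 and 0.0382 CPM in wild-type NN (9 counts in all), at 5.45, 1.37 and 5.00 in NP and at 123, 10.3 and 70.1 in PP. Without MCJ, Abca1 was at 0.868 and 0.437 CPM in NN, at 8.31, 16.7 and 8.72 in NP and at 216, 139.9 and 36.4 in PP. The order NN, NP, PP held without overlap in both genotypes, and wild-type PP library 11, with the low macrophage sum, was again the lowest of its group. Abca1 was called in all 6 treatment comparisons, with log2 fold changes of 9.02 ± 1.07 and 7.64 ± 1.14 for PP against NN (adjusted p = 2.21e-05 and 0.000317). Abcg1, a second cholesterol exporter, rose by 4.41 ± 0.92 and 5.46 ± 1.15 (log2, adjusted p = 0.00267 and 0.00504). Macrophage markers moved with both: 11 of 12 were called higher in wild-type PP against NN and 10 of 12 in MCJ deficiency, and their part in these values was not tested. Soat2, which esterifies cholesterol, had 0 counts in the 3 wild-type NN libraries and passed in wild type. From counts pooled over each wild-type group, it was at least 24.2-fold higher in NP and at least 37.8-fold higher in PP. These bounds take 3 counts in the NN group as the lowest level that could be seen, and they leave out the spread between libraries. Without MCJ, Soat2 was present in NN, at 98 counts over the group, with 85 in NP and 596 in PP. Lipa, the lysosomal lipase, rose in MCJ-deficient PP (1.46 ± 0.45, log2, adjusted p = 0.0453).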

How the data were processed

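RNA of 17 colon macrophage preparations was sequenced (NuGEN mRNA kit, per the labels' protocols). The authors deposited raw read counts per NCBI gene number in 3 tables, 1 per condition. Per the submitters' processing notes, CASAVA 1.8.2, FastQC, Trim Galore, STAR 2.5.4, mm10 and DESeq2 were used. The counting program, annotation and strand setting are not given in the sources used here, so overlapping genes and near-identical copies may share reads. Symbols came from RefSeq GRCm38.p6; 1904 of 27179 rows had none.

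Genes with low counts were left out (filterByExpr). Libraries were TMM-scaled and fitted with edgeR 4.0.16 in R 4.3.3, after tests on simulated data. MCJ effects within a condition used 1 fit per table, and the other contrasts 1 fit of 17 libraries with 6 group means. Genes were called at a Benjamini-Hochberg adjusted p under 0.05 over all genes tested. Alternatives were RLE scaling, DESeq2 1.42.0, no filter, mitochondrial genes left out, other sets of libraries, a replicate block and each library left out. Members, lists and comparisons were chosen with earlier results of these data known. Regulators and called members were named with every library's value, others by range and counts, and up to 3 called genes of each other list by smallest p. Some genes were named outside this rule after their values were seen, such as Hmgcs1, Lss, Fdps and Scd1.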

Additional observations from a re-analysis of the deposited data

How the results depend on the processing

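The fold changes of the called members, and of Insig1, Hmgcs1, Lss and Sqle averaged over conditions, kept their sign in every alternative run, and RLE scaling changed no count of members called by over 1.5 times. RLE scaling moved the median of all genes in MCJ-deficient PP against NN from 0.06 to 0.16, the one shift over 0.1, and the members' median for DSS without MCJ from -0.02 to 0.05. For the averaged MCJ effect, 0 members called became 4 with DESeq2, 2 with no filter and 0 to 3 with 1 library left out. In NN, DESeq2 called 2. For PP against NP, MCJ-deficient, 0 became 1 with DESeq2 and 0 to 2 with 1 library left out. In wild type, 1 became 0 when only the 2 groups were fitted, 2 with DESeq2, 2 with mitochondrial genes left out, 2 with no filter and 0 to 4 with 1 library left out. For PP against NN, 6 in wild type became 2 with the 2 groups alone and 2 to 8 with 1 library left out, and 4 in MCJ deficiency became 2 and 1 to 4. The cause of these moves was not tested. A fit with 1 library left in a group assumes that it varies like the other groups. The other comparisons stayed at 0 members called in every alternative run. Genes called in all also moved: with DESeq2, 2698 instead of 1746 in MCJ-deficient PP against NN, 1380 instead of 748 and 923 instead of 294 in PP against NP (wild type, MCJ-deficient), 1092 instead of 414 and 787 instead of 352 for DSS, 361 instead of 145 for MCJ in NP, 312 instead of 0 in NN, 88 instead of 0 in PP, 476 instead of 1 averaged, and 141 and 81 instead of 0 for NP minus NN and PP minus NP. With only the 2 groups fitted, 1612 instead of 3409 genes were called in wild-type PP against NN, 802 instead of 294 in MCJ-deficient PP against NP, and 42 instead of 414 (wild type) and 1029 instead of 352 (MCJ-deficient) for DSS. With no filter, 558 instead of 294 were called in MCJ-deficient PP against NP, 353 instead of 145 for MCJ in NP and 97 instead of 1 averaged; with all 17 libraries in 1 fit, 1 instead of 145 for MCJ in NP. A replicate block was fitted by mouse number, where mice 1 and 2 occur in both groups. It left 0 members called for MCJ in NN and 0 for DSS without MCJ. Same-numbered libraries did not deviate together (r from -0.1 to -0.00857). The 2 MCJ-deficient NN libraries mirror each other around their mean, so these r values cannot tell whether the numbers mark pairs. The labels name no pairs, and the numbers were not taken as such. With 2 or 3 libraries a group, members whose change is near the spread between libraries were not detectable.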

Other observations

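The members Ebp and Nsdhl lie on the X chromosome, and the groups differed in Xist. Besides the MCJ-deficient NN libraries, at 7176 and 7950 counts, Xist had 2048 and 1100 counts in wild-type NN libraries 1 and 2, 3822 in MCJ-deficient NP library 21 and 0 to 9 in the other 12. Every comparison with NN, that of the genotypes in NN and the averaged MCJ effect thus set libraries with unequal Xist side by side. So do the comparisons that use MCJ-deficient NP, such as the MCJ effect in NP, through library 21. That library also had the highest Insig1 level of all. The part of a difference in sex in the values of Ebp, Insig1 and the other members was not tested. In wild-type NN, Ebp stood at 170.1 and 154 CPM in libraries 1 and 2. It stood at 142 in library 3, which had 1 count of Xist.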
